A study of Mus musculus with 2 samples.

Results

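The genes of mast cell and basophil receptors and mediators were examined in single leukemia cells. The 10 genes were chosen by symbol: the 3 chains of the IgE receptor (Fcer1a, Ms4a2 and Fcer1g), the IL-33 receptor Il1rl1, the histamine enzyme Hdc, the granule genes Srgn and Slc18a2, the leukotriene enzyme Alox5 and the transcription factors Gata2 and Mitf. All 10 are among the 31053 genes of the matrices, and all 10 had at least 100 UMIs in both libraries together, as did 10527 genes in all. UMIs count captured transcript molecules. Since each molecule is tagged once near its 3′ end, UMI counts do not grow with transcript length.

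The cells came from a mouse model of acute myeloid leukemia, in which donor cells carried the fusion protein AML1-ETO9a (AE9a) with GFP, floxed Usp18 and UBCER-Cre, a recombinase present in all tissues that tamoxifen activates. Recipient mice, which the study's methods give as C57BL/6 adults, were injected with oil or tamoxifen once they were sick, and GFP+ Lin- c-Kit+ cells were taken by sorting from spleens on day 3 after injections began. Each group is 1 library from a pool of 3 mice, and 8000 cells were targeted per library. The labels disagree on the genotype: the series title, genotype and treatment labels give f/f cells and a delta/delta deletion, whereas the treatment protocol gives +/f cells and a heterozygous one. The paper describes a heterozygous single-cell set and a separate f/f against delta/delta set, which the title, genotype and treatment labels match. Both groups carried AE9a, GFP, the floxed allele and the recombinase, so they differ in the injection and in the deletion that it should cause. After filtering there were 6838 cells with 66045700 UMIs in the library labelled oil and 6472 cells with 60661486 UMIs in that labelled tamoxifen, with a median of 8622.5 and 8209.5 UMIs per cell. The libraries shared 14 cell barcodes. Usp18 itself had 5.62 CPM (UMIs of a gene per 1000000 UMIs of the kept cells) in the library labelled oil and 15.4 CPM in that labelled tamoxifen, which goes against the labels, although 3′ reads outside the deleted exons do not check a deletion. Interferon-stimulated genes, named here after their values were seen, were also higher in the library labelled tamoxifen: Isg15 had 47.8 and 113 CPM, Irf7 9.37 and 28.0 CPM, Oasl2 4.04 and 19.4 CPM and Ifit1 1.11 and 9.97 CPM. USP18 removes ISG15 from proteins and restrains interferon signalling. The Usp18 count alone does not show which library lost the gene, and the cause of its difference was not tested. With 1 library per group no difference can be set against the spread between mice, no test was run, and every interval below is at 95% and covers counting error only.

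Mast cells and basophils carry the high-affinity IgE receptor, which is built of an α chain that binds IgE, a β chain that amplifies the signal and a pair of γ chains that transmit it. In the mouse the α chain needs the γ chain to reach the cell surface. Cross-linked IgE makes these cells release histamine and other contents of granules packed on serglycin, and synthesise leukotrienes. Gata2 and Mitf are transcription factors that mast cell development requires. The sorted cells bore part of a mast cell profile. Of 8 mast cell markers 1 was at 0 in both libraries (Mrgprb1), and the list summed to 1130 CPM in the library labelled oil and 902 CPM in that labelled tamoxifen. Most of this sum came from Cma1 (517 and 426 CPM), Cpa3 (352 and 321 CPM) and Mcpt1 (218 and 123 CPM). Mcpt4 was seen in only 6.67% and 5.01% of kept cells. Tpsab1 had 11.7 and 9.63 CPM, Mrgprb2 2.04 and 1.45 CPM, and Tpsb2 only 32 and 3 UMIs. The basophil list of 7 genes summed to 173 and 155 CPM, of which Cd200r3 made 107 and 86.6 CPM and Il4 58.7 and 63.7 CPM, while the basophil protease Mcpt8 had 3.23 and 1.34 CPM. The erythroid list was higher than either, at 2449 and 2154 CPM, and the neutrophil list had 3 UMIs in each library, the B cell list 14 and 11, the T cell list 0 and 8 and the dendritic cell list none.

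To show where the 3 chains of the IgE receptor lie and what precedes them, the 250 bases before each RefSeq start (GRCm38.p6) are given 5′ to 3′ on the strand of the gene. Capitals mark 4 motifs on either strand: the GATA motif (AGATAA or TGATAA), the E-boxes CACATG and CACGTG that bind factors such as Mitf, and GAGGAA, a core bound by Ets factors such as PU.1. No marked match overlaps another.
Ms4a2, β chain, chr19:11623720-11623969, minus strand: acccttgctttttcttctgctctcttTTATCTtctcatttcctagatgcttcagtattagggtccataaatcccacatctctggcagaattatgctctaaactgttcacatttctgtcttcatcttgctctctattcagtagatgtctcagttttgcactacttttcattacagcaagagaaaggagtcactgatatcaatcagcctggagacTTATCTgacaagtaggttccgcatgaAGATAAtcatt
Fcer1a, α chain, chr1:173227230-173227479, minus strand: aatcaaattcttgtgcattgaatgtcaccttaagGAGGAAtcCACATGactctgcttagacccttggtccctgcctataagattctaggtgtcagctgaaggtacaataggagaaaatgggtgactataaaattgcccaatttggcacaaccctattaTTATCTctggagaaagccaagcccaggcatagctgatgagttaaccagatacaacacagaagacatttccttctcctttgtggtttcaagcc
Fcer1g, γ chain, chr1:171234350-171234599, minus strand: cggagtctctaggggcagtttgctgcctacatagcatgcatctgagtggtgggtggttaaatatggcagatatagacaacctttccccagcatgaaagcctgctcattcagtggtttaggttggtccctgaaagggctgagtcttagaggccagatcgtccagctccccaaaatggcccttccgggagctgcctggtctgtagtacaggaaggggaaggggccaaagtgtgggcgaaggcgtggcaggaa
The β chain window holds 3 GATA matches, the α chain window 1 GATA, 1 CACATG and 1 GAGGAA match, and the γ chain window none of the 4 motifs. Over 32841 windows of the same length, 16.6% hold a GATA match, 12.3% CACATG, 6.02% CACGTG and 23.3% GAGGAA. All 10 genes had at least 1 window, and the GATA motif also occurs before a start of Il1rl1, Slc18a2 and Mitf.

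The α and β chains were abundant and the γ chain was nearly missing. Ms4a2, the β chain, had 857 CPM (850 to 864) for the library labelled oil and 801 CPM (794 to 808) for that labelled tamoxifen. Fcer1a, the α chain, had 266 CPM (262 to 270) and 222 CPM (218 to 226). Fcer1g, the γ chain, had 77 and 70 UMIs in all, or 1.17 CPM (0.920 to 1.46) and 1.15 CPM (0.900 to 1.46). The intervals of the 3 chains lay far apart in each library, with the γ chain lowest. The 3 genes lie at chr19:11615523-11623719 (Ms4a2), chr1:173221284-173227214 (Fcer1a) and chr1:171229572-171234365 (Fcer1g) on GRCm38. None of them (Ms4a2, ENSMUSG00000024680; Fcer1a, ENSMUSG00000005339; Fcer1g, ENSMUSG00000058715) shares exonic bases with another gene in GENCODE M21.

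Shares of cells were compared after each cell was thinned to 3000 UMIs, which left 6330 and 6127 cells. Ms4a2 was seen in 86.7% (85.8 to 87.5) of cells from the library labelled oil and 81.6% (80.6 to 82.6) in that labelled tamoxifen. Fcer1a was seen in 33.6% (32.5 to 34.8) and 31.9% (30.7 to 33.0), and Fcer1g in 0.395% (0.256 to 0.582) and 0.473% (0.317 to 0.679). Without thinning the shares were 96.1% and 93.02% for Ms4a2, 50.9% and 47.7% for Fcer1a, and 0.892% and 1.02% for Fcer1g. The share that free RNA alone would give was not measured. Both α and β were seen in 31.3% and 28.6% of thinned cells, β without α in 55.4% and 53.0%, and α without β in 2.37% and 3.22%. All 3 chains were seen in 7 and 12 cells.

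The few UMIs of Fcer1g lay in part beside macrophage transcripts, a comparison chosen after the values were seen. C1qa, a complement gene of tissue macrophages, had 66 UMIs in each library and was found in 44 and 56 cells, of which 13 and 10 also held Fcer1g. Fcer1g was therefore present in 29.5% (16.8 to 45.2) and 17.9% (8.91 to 30.4) of cells with C1qa, and in 0.707% (0.521 to 0.936) and 0.873% (0.660 to 1.13) of cells without it. The monocyte or macrophage list as a whole summed to 1.73 and 1.57 CPM, with Ly6c2 at 0 in both libraries. With the cells that bore any marker of that list left out, 50 and 53 Fcer1g UMIs remained. Partners of the γ chain differed in level. Fcgr3, an IgG receptor chain that also pairs with γ, had 48.0 and 49.3 CPM, and the related signalling adaptors Tyrobp and Cd247 had 6.995 and 6.68 CPM and 5.47 and 5.19 CPM. The IgG receptor chains Fcgr1 and Fcgr4, which also pair with γ, were rare, with 38 and 21 UMIs and with 3 and 10 UMIs. These 5 genes were likewise chosen after their values were seen.

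**Figure D1:**
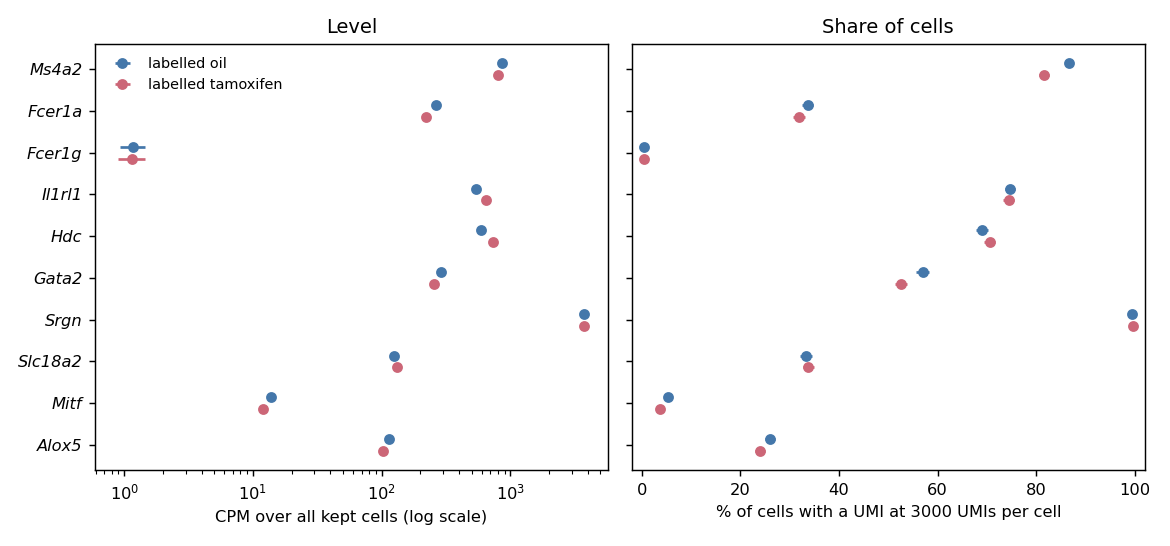
Level and share of cells for the 10 genes in the 2 libraries. The left panel gives CPM over all kept cells on a log axis with exact Poisson intervals, and the right panel the percentage of cells with a UMI after thinning to 3000 UMIs per cell with Clopper-Pearson intervals; Srgn is highest (3761 and 3749 CPM) and Fcer1g lowest (1.17 and 1.15 CPM).

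The other receptor and the mediators differed widely in level. On GRCm38, Il1rl1 lies at chr1:40429570-40465415, Hdc at chr2:126593667-126619299, Slc18a2 at chr19:59260896-59296012, Srgn at chr10:62493833-62527451, Alox5 at chr6:116410077-116461178, Gata2 at chr6:88193891-88207032 and Mitf at chr6:97807052-98021349. None shares exonic bases with another gene on its strand, and Slc18a2 shares 111 with Gm29261 on the other strand. Il1rl1, whose product ST2 binds IL-33, had 539 CPM (534 to 545) for the library labelled oil and 642 CPM (635 to 648) for that labelled tamoxifen. The gene also makes a soluble form, and the count sums both. Il1rap, the co-receptor without which ST2 does not signal, was far lower at 4.88 and 3.82 CPM, and no UMI of the ligand Il33 was found, which allows up to 0.0559 and 0.0608 CPM. Hdc, which makes histamine from histidine, had 589 CPM (583 to 595) and 736 CPM (729 to 743). Slc18a2, the transporter that loads histamine and serotonin into granules, had 124 CPM (121 to 127) and 131 CPM (128 to 134). Srgn encodes serglycin, the proteoglycan core of the granule, and was the highest of the 10 with 3761 CPM (3746 to 3775) and 3749 CPM (3733 to 3764). Alox5, the enzyme that begins leukotriene synthesis, had 114 CPM (111 to 116) and 103 CPM (100 to 105). Gata2 had 288 CPM (284 to 292) and 254 CPM (250 to 258), whereas Mitf had only 13.9 CPM (13.0 to 14.8) and 12.03 CPM (11.2 to 12.9). In both libraries the order by level was Srgn, Ms4a2, Hdc, Il1rl1, Gata2, Fcer1a, Slc18a2, Alox5, Mitf and Fcer1g, and no intervals of neighbours overlapped.

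The ratio of variance to mean over cells was highest for Fcer1a, Srgn and Hdc, a measure that grows with the mean and so does not rank relative spread. At 3000 UMIs per cell Fcer1a had a mean of 1.17 UMIs, a median of 0 and a maximum of 32 in the library labelled oil, and its variance was 5.92 times the mean. The same ratio was 5.01 in the library labelled tamoxifen. Hdc had a ratio of 4.12 and 6.57 with a highest cell of 46 and 53 UMIs. Srgn, seen in 99.5% and 99.6% of cells, had a ratio of 6.30 and 5.63 around a median of 11 UMIs in both libraries. Ms4a2 was seen in most cells and had a ratio of 2.01 and 2.19. For Gata2, Slc18a2, Alox5 and Mitf the ratio lay between 1.11 and 1.55. Their means were below 1 UMI, where the ratio stays low even for genes that differ between cells, as Slc18a2 and Mitf did between groups of cells (below). A median of 5 of the 10 genes was seen per thinned cell in each library.

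Next, the libraries were compared. Of the 10 genes, 3 had a log2 ratio of tamoxifen over oil whose counting interval lay above 0, where 19.3% of all 10527 genes did, and 5 had one below 0, where 39.8% of all genes did. The median log2 ratio was -0.06 for the 10 genes and -0.06 for all genes. Hdc was 1.25-fold higher (log2 0.32, 0.30 to 0.34) and Il1rl1 1.19-fold higher (log2 0.25, 0.23 to 0.27) in the library labelled tamoxifen. Slc18a2 was higher by 0.07 (0.03 to 0.12). Fcer1a had the lowest ratio at -0.26 (-0.30 to -0.23), followed by Mitf at -0.21 (-0.35 to -0.06), Gata2 at -0.18 (-0.21 to -0.15), Alox5 at -0.15 (-0.20 to -0.10) and Ms4a2 at -0.10 (-0.11 to -0.08). Srgn at -0.00 (-0.01 to 0.00) and Fcer1g at -0.01 (-0.50 to 0.47) had intervals that include 0. Only Hdc passed 1.2-fold upwards, as 9.08% of all genes did, and only Fcer1a passed it downwards, as 16.9% of all genes did. None of the 10 differed 1.5-fold, as 2.09% of all genes did upwards and 1.27% downwards. Ribosomal protein genes took 24.3% of UMIs in the library labelled oil and 28.1% in that labelled tamoxifen, and with these and mitochondrial genes left out of the totals the median ratio of the 10 was 0.02 and 3 intervals lay below 0. TMM scaling likewise gave a median of 0.01. Both choices move the log2 ratio of every gene by the same amount, so the median of all genes moves with that of the 10. The share of all genes with an interval below 0 was not computed under them. A stricter filter (1000 or more genes, mitochondrial share up to 5%) left only 673 and 771 cells. There the ratios of Fcer1a and Mitf had point values above 0, at 0.11 and 0.21, given without intervals.

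Cell cycle phase moved with these ratios. Phases were called on thinned cells from S and G2M gene lists, and a cell with neither score is called G1. G1 cells made 43.7% of cells from the library labelled oil and 57.3% in that labelled tamoxifen, and the genes were higher in G1 (below). Within G1 the ratio of Hdc was 0.05 (0.03 to 0.08) and that of Il1rl1 0.10 (0.07 to 0.13), in S 0.14 and 0.05, and in G2M 0.17 and 0.06, so both were smaller in each phase than over all cells. Slc18a2, which was higher over all cells, was lower in every phase: -0.20 (-0.26 to -0.15) in G1, -0.24 (-0.37 to -0.11) in S and -0.10 (-0.20 to -0.01) in G2M. Fcer1a was lower by more than over all cells, at -0.57 (-0.61 to -0.53) in G1, -0.40 (-0.50 to -0.30) in S and -0.51 (-0.58 to -0.43) in G2M. Mitf in G1 gave -0.56 (-0.75 to -0.38), and Srgn, level over all cells, gave -0.20 in G1, -0.10 in S and -0.06 in G2M. With the share of each phase set equal in both libraries, a calculation added after seeing the data, the ratios were 0.10 for Hdc, 0.08 for Il1rl1, -0.19 for Slc18a2 and -0.54 for Fcer1a.

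**Figure D2:**
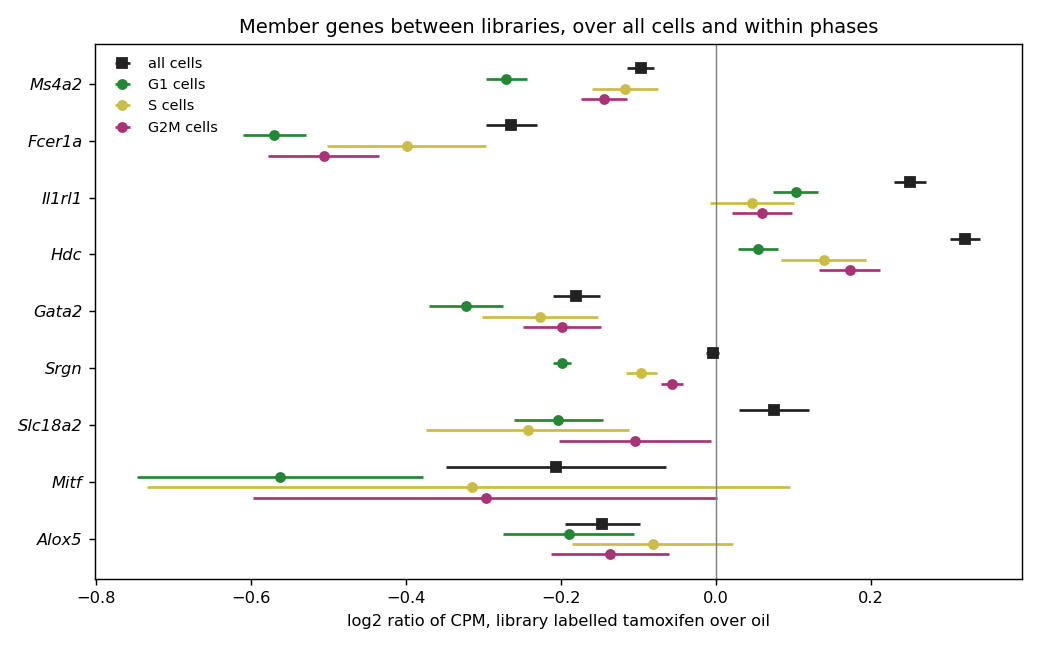
Log2 ratio of CPM, library labelled tamoxifen over library labelled oil, for 9 of the 10 genes (Fcer1g left out for its few UMIs), over all cells (squares) and within G1, S and G2M cells (circles), with exact conditional binomial intervals. Hdc and Il1rl1 lie nearer to 0 within phases than over all cells, and Slc18a2 moves from 0.07 over all cells to negative values in each phase.

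The genes were then followed across the cells of each library. Cells were ordered by the share of UMIs from mast cell proteases and cut into 4 equal groups, from group 1 (lowest share) to group 4 (highest), with the proteases left out of the totals. In 29.4% and 34.5% of cells no protease UMI was found, so group 1 held only such cells. The rest of them fell in group 2 by their order in the data, so groups 1 and 2 are not fully distinct. Between groups 4 and 1, 9 of the 10 genes were 1.5-fold or more higher in each library, where 32.2% of all genes were in the library labelled oil and 28.9% in that labelled tamoxifen. The median log2 ratio of the 10 was 1.32 and 1.57, beside 0.21 and 0.20 for all genes.

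Fcer1a had the widest range. Its level over the 4 groups was 79.3, 113, 336 and 907 CPM in the library labelled oil and 64.6, 87.1, 298 and 703 CPM in that labelled tamoxifen, a log2 ratio of 3.52 (3.44 to 3.60) and 3.44 (3.35 to 3.54). Slc18a2 followed with 2.48 (2.38 to 2.58) and 2.28 (2.18 to 2.38), Mitf with 2.11 (1.83 to 2.40) and 1.99 (1.69 to 2.30) and Hdc with 2.09 (2.05 to 2.14) and 1.67 (1.63 to 1.71). For most genes groups 1 and 2, which both held cells with no protease UMI, lay close together and groups 3 and 4 were higher. Ms4a2, the β chain, was still at 592 and 581 CPM in cells of group 1 and reached 1412 and 1298 CPM in group 4, a log2 ratio of 1.25 and 1.16. Il1rl1 (1.33 and 1.47) and Srgn (1.30 and 1.14) had ratios like it, and Gata2 a smaller one (0.83 and 0.84). Fcer1g rested on 12 and 14 UMIs in the library labelled oil and 12 and 21 in that labelled tamoxifen. Alox5 went the other way, from 126 to 86.5 CPM and from 109 to 84.5 CPM, a log2 ratio of -0.54 (-0.65 to -0.42) and -0.37 (-0.49 to -0.25).

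**Figure D3:**
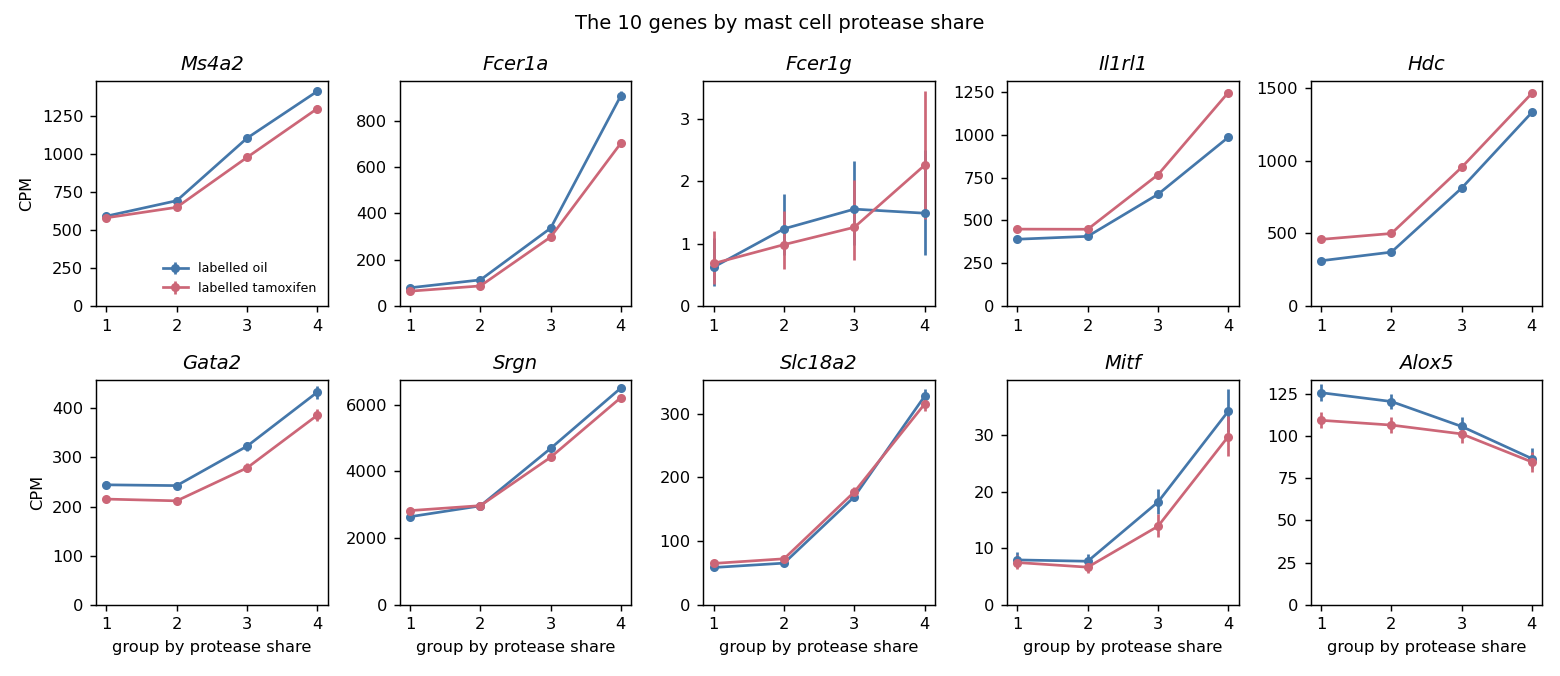
CPM of each of the 10 genes in 4 equal groups of cells ordered by mast cell protease share, from lowest (1) to highest (4), in each library, with exact Poisson intervals and the proteases left out of the totals. Fcer1a goes from 79.3 to 907 CPM and from 64.6 to 703 CPM, and Alox5 is lowest in group 4.

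Depth and phase differed between the groups. The median was 11106.5 UMIs per cell in group 1 and 4728 in group 4 of the library labelled oil, and 10393 and 5034.5 in the other. With all cells thinned to 3000 UMIs the log2 ratio of Fcer1a was 2.96 and 2.88, and among G1 cells alone it was 2.61 and 2.86. Among G1 cells Ms4a2 gave 0.81 and 0.89, Hdc 1.38 and 1.08, and Alox5 -0.92 and -0.42.

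The genes other than Alox5 and Fcer1g were lower in cycling cells of both libraries, and Fcer1g had an interval below 0 only in the library labelled tamoxifen. Fcer1g had 26 UMIs in G1 and 32 in G2M in the library labelled oil, a log2 ratio of -0.44 (-1.24 to 0.36). In the library labelled tamoxifen it had 39 UMIs in G1, 8 in S and 19 in G2M, and its log2 ratio was -1.20 (-2.51 to -0.08) for S and -0.89 (-1.77 to -0.07) for G2M. Fcer1a had 555 CPM in G1, 133 CPM in S and 149 CPM in G2M in the library labelled oil, and 374, 101 and 105 CPM in the library labelled tamoxifen. Hdc fell from 1119 CPM in G1 to 379 CPM in G2M and from 1161 to 427 CPM, and Slc18a2 from 249 to 68.1 CPM and from 217 to 63.3 CPM. Mitf had 27.6 CPM in G1 and 8.17 CPM in G2M, and 18.7 and 6.66 CPM in the other library. Ms4a2 kept more of its level, with 1217 and 733 CPM and with 1009 and 663 CPM, and Gata2 too, with 372 and 263 CPM and with 297 and 229 CPM. Alox5 differed least, at 114, 113 and 114 CPM over G1, S and G2M in the library labelled oil and 99.7, 107 and 104 CPM in that labelled tamoxifen. In G2M 7 and 8 of the 10 genes were 1.5-fold or more lower than in G1, where 26.5% and 23% of all genes were. In S these were 8 and 9 of the 10, where 27.2% and 25.7% of all genes were. Cycling cells were deeper, with a median of 12791 UMIs in G2M and 6036 in G1 in the library labelled oil.

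Hemoglobin share divided the genes other than Fcer1g into 2 kinds. With cells cut into 4 equal groups by hemoglobin share, between group 4 (highest) and group 1 Fcer1a was lower by a log2 ratio of -1.20 (-1.27 to -1.14) for the library labelled oil and -2.18 (-2.26 to -2.09) for that labelled tamoxifen. Slc18a2 gave -0.88 and -1.14, Hdc -0.73 and -0.76, Srgn -0.58 and -0.73, Il1rl1 -0.32 and -0.66, and Ms4a2 -0.29 and -0.44. Mitf was instead higher, by 1.68 (1.38 to 1.98) and 0.95 (0.65 to 1.25), as were Alox5, by 0.71 and 0.76, and Gata2, by 0.38 and 0.31. Mitf and Gata2 thus rose with both the protease and the hemoglobin share, and Alox5 with the hemoglobin share alone. Fcer1g had intervals that include 0 (-0.66 to 1.18 and -0.85 to 1.12). At 1.5-fold, 3 and 5 of the 10 genes were lower, where 9.32% and 11.6% of all genes were, and 2 were higher in each library, where 7.76% and 8.86% were. The median depth of groups 1 and 4 was 8247 and 7243 UMIs in the library labelled oil and 6643.5 and 7632 in the other.

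**Figure D4:**
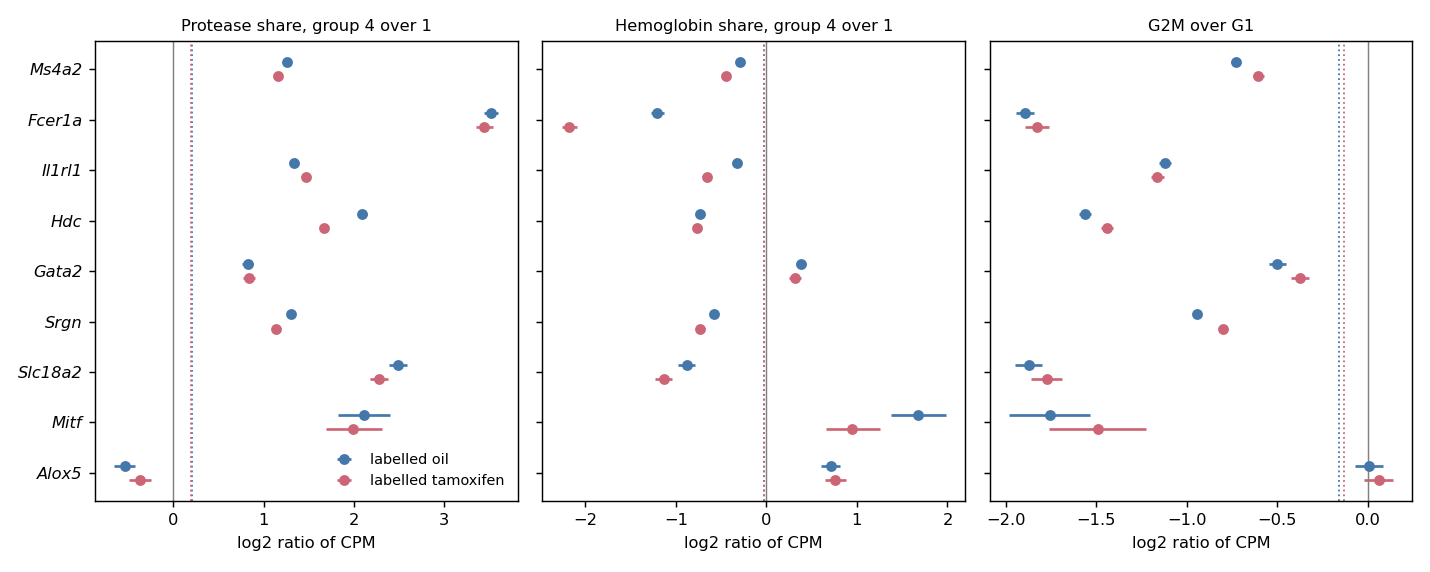
Log2 ratio of CPM within each library for 9 of the 10 genes: group 4 over group 1 by mast cell protease share (left), group 4 over group 1 by hemoglobin share (middle) and G2M over G1 cells (right), with exact intervals and dotted lines at the medians of all genes. Alox5 is the 1 gene below 0 on the left, and Gata2, Mitf and Alox5 lie above 0 in the middle panel.

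By the share of interferon-stimulated transcripts the differences were smaller. The median log2 ratio of the 10 between group 4 (highest) and group 1 was 0.38 and 0.30, beside 0.09 and 0.08 for all genes, and none of the 10 was 1.5-fold lower, as 3.28% and 7.44% of all genes were. Mitf was 1.66-fold and 1.43-fold higher, Slc18a2 1.42-fold and 1.30-fold, and Fcer1g passed 1.5-fold on 13 and 17 UMIs and on 16 and 19 UMIs. Upwards, 8.11% and 9.8% of all genes passed 1.5-fold. Ms4a2 gave a log2 ratio of 0.37 (0.33 to 0.40) and 0.03 (-0.01 to 0.07). The median depth of groups 1 and 4 was 8122.5 and 6284 UMIs in the library labelled oil and 8431 and 6580.5 in the other. This split was not repeated on thinned cells or on G1 cells alone.

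Cells were also clustered, with these 10 genes, the proteases and hemoglobins kept out of the features, and the levels are given as a description. Cluster 3, led by Cpa3, Trnp1 and Sgk1 and holding 11.9% of cells from the library labelled oil and 17.2% in that labelled tamoxifen, had the highest Fcer1a (1187 and 841 CPM), Slc18a2 (384 and 358 CPM), Hdc (1382 and 1841 CPM), Il1rl1 (1155 and 1452 CPM), Srgn (7358 and 6611 CPM) and Ms4a2 (1372 and 1297 CPM). The lowest Fcer1a was in cluster 4, led by replication genes such as Hells, at 85.6 and 54.8 CPM, so the range was 13.9-fold and 15.4-fold. Gata2 was highest in cluster 0 at 458 and 425 CPM, as was Mitf in the library labelled oil at 38.1 CPM (in the other it was highest in the shallow cluster 7, at 40.4 CPM), and cluster 0 was led by Klf2 and S100a6 and held several proteases. Alox5 varied least in the library labelled oil, 1.79-fold between its lowest and highest cluster.

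Cluster 5 belonged almost to 1 library, with 18 cells labelled oil and 808 labelled tamoxifen, and was led by Crebrf, Klhl24, Per1 and Ddit4. In the library labelled tamoxifen its cells had the lowest Ms4a2 (384 CPM), Il1rl1 (259 CPM) and Mitf (3.55 CPM) of all clusters, beside 801, 642 and 12.03 CPM over that library. Without cluster 5 the ratio of the libraries, computed after seeing the data, was -0.02 (-0.04 to -0.00) for Ms4a2, 0.34 for Il1rl1, 0.38 for Hdc and -0.23 for Fcer1a. A cluster that is nearly all of 1 library cannot be told apart from that library. Cluster 7 was shallow, with a median of 1054 UMIs, and its values rest on 134 and 56 cells.

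**Figure D5:**
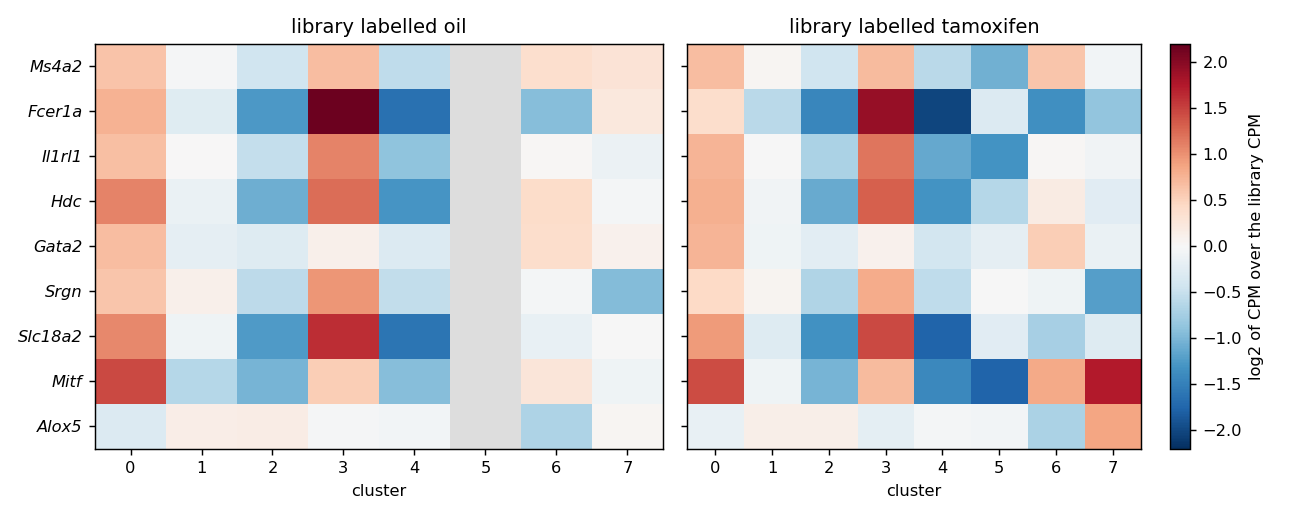
Log2 of the CPM of 9 of the 10 genes in each cluster over their CPM in the whole library, for the library labelled oil (left, with cluster 5 in grey for its 18 cells) and tamoxifen (right). Cluster 3 is red for Fcer1a, Slc18a2, Hdc and Il1rl1 in both libraries, and clusters 2 and 4, rich in cycling cells, are blue for all but Alox5.

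Across cells the genes most like each member were named by the mean of Pearson's r over the 2 libraries, among 8423 genes. Cells of a library share that library and differ in depth, so r is a description only. Fcer1a was most like Cpa3, a mast cell carboxypeptidase (0.57 and 0.55), then Tespa1 and Slc7a8. Slc7a8, an amino acid transporter, was also the gene most like Slc18a2 (0.42 and 0.45) and Il1rl1 (0.35 and 0.46), and Kit, the stem cell factor receptor, came next for Il1rl1 (0.36 and 0.44). Ms4a2 was most like Lmo4 (0.42 and 0.46), Hdc like Serpinb1a (0.48 and 0.41), and Srgn like Itm2b (0.57 and 0.51). The erythroid carbonic anhydrase Car2 was the least like, or among the 3 least like, for Ms4a2, Fcer1a, Il1rl1, Hdc, Srgn and Slc18a2, and among the 3 most like for Alox5 (0.19 and 0.22). Mitf was most like Tph1, the first enzyme of serotonin synthesis (0.19 and 0.20), and Gata2 like Malat1 (0.26 and 0.24). For Fcer1g the highest was Smurf1, at 0.03 and 0.06. Among the members, Fcer1a and Ms4a2 had an r of 0.25 and 0.26, lower than Fcer1a and Srgn (0.47 and 0.46).

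Genes that work with these receptors and mediators were taken from lists. Over all genes, 19.3% had an interval above 0 and 39.8% below, and the list counts are to be read beside these shares. Downstream of the IgE receptor, 32 of 36 genes were measured; 11 had a ratio of the libraries with an interval above 0 and 9 below, and the median log2 ratio was 0.01. Grap2, an adaptor, was higher (0.32, 78.9 and 98.3 CPM), and the adaptor Lat was lower (-0.34, 23.9 and 18.9 CPM). In the IL-33 receptor list 2 of 15 measured genes lay above 0 and 3 below, with Il1rap lowest at -0.35 (-0.60 to -0.10). Of the granule and exocytosis list 7 of 20 lay above and 9 below, and Cd63, a granule membrane protein, had the highest ratio, 0.97 (0.53 to 1.43), on 66 and 119 UMIs.

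Amine handling was measured for 4 of 11 genes. Tph1 was higher in the library labelled tamoxifen, at 242 and 308 CPM (0.35, 0.32 to 0.38), and Ddc, which makes the amine from its precursor, lower at 160 and 144 CPM (-0.15). Hnmt, Maoa and Maob, which break down histamine and other amines, had no UMI in either library, and were named after their values were seen. For leukotrienes, Alox5ap, the protein that presents the substrate to Alox5, had 226 and 241 CPM (0.09), and Ltc4s, which makes leukotriene C, 10.3 and 11.8 CPM (0.20). Of the eicosanoid list 3 of 9 measured genes lay above 0 and 2 below, where 19.3% and 39.8% of all genes did.

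Among transcription factors 8 of 20 measured genes lay above and 5 below, where 19.3% and 39.8% of all genes did. Tfe3, a relative of Mitf, was at 0.31 (18.7 and 23.2 CPM) and Cebpb lowest at -0.25. Of 14 measured surface receptors 5 lay above and 4 below, beside the same shares of all genes. Kit was higher at 171 and 232 CPM (0.44, 0.40 to 0.47), and Cd200r3, a receptor of basophils and mast cells, lower at 107 and 86.6 CPM (-0.30). Of the mast cell proteases 6 of 7 measured lay below 0, where 39.8% of all genes did, and 1 above, with a median of -0.28, and Mcpt1 was lowest at 218 and 123 CPM (-0.82, -0.87 to -0.78).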

How the data were processed

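The deposited files hold UMI counts per gene and cell barcode without normalization, which the authors made from 10x Chromium 3′ V3 reads with Cell Ranger 3.0.2 and mm10. Counts of both libraries were read as deposited, and the barcode and gene lists only name the rows and columns. Cells were kept from 500 genes upwards and up to 10% mitochondrial UMIs, which left out 936 and 839 barcodes. Counts were summed over cells and divided by the total to give CPM with exact Poisson intervals. Ratios have exact conditional binomial intervals and shares Clopper-Pearson intervals, for genes whose UMIs over both libraries reached 100. No test was run, since each group has 1 library. Thinning was 1 random draw and left out 508 and 345 shallower cells. Phases, Scrublet scores and Leiden clusters (resolution 0.5, 2000 variable features, 20 components, 20 neighbors) come from scanpy 1.11.5. Scrublet called 0.0731% and 0% of cells and so did not work, and no doublets were removed. Genes were named by rule: the 10 members, the 3 highest and 3 lowest ratios of each list and the 3 genes most like each member by r, with exceptions named where they occur. Of the other listed genes only a few are given. The members and lists were chosen with earlier results of these data known. Positions are from GENCODE M21 (GRCm38), in which 31011 of 31053 gene identifiers were found, and promoter sequences from RefSeq GRCm38.p6. The ratio, interval and cell group steps were tested on simulated data. The alternatives were other cell filters, TMM (edgeR 4.0.16) and median-ratio scaling (DESeq2 1.42.0), other totals and weights, single phases and protease groups, other depths and other cluster resolutions.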

Additional observations from a re-analysis of the deposited data

Results flagged for a closer look

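Among barcodes that failed the cell filter, which no comparison above uses, Fcer1g had 3 UMIs in the library labelled oil and 13 in that labelled tamoxifen, a log2 ratio of 2.06 (0.19 to 4.51). It was singled out because its interval lies above 0 in data outside the main measurement. It was not the only gene with an interval off 0 there. Ms4a2, Fcer1a, Gata2, Srgn and Slc18a2 had intervals below 0 on more UMIs. Fcer1a was at -0.66 (-0.78 to -0.55), and Slc18a2, higher in the kept cells, at -0.22 (-0.36 to -0.07). No explanation was tested.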

How the results depend on the processing

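No paired analysis was possible because the oil and tamoxifen groups hold 1 library each. Intervals cover counting error only, so differences between mice, sorts or library preparations cannot be told apart from the injection, and low counts limit Fcer1g and Mitf most. Single phases other than G1, equal phase shares and leaving out cluster 5 were chosen after seeing the data. The cause of the changes below was not tested.

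The median ratio of the 10 genes between libraries, -0.06, became 0.11 under the stricter cell filter, 0.01 with TMM (0.00943) and median-ratio scaling (0.00708), 0.02 (0.0244) without mitochondrial and ribosomal genes, 0.01 (0.00858) in protease group 2, -0.20 in G1, -0.17 in S, -0.19 at equal phase shares and -0.01 (-0.0101) without cluster 5. TMM scaling, median-ratio scaling and the other total move the log2 ratio of every gene by the same amount, so the median of all genes moves alike. The 3 intervals above 0 became 5 under the stricter filter and 1 in S. The 5 below became 2 under the stricter filter and 3 without mitochondrial and ribosomal genes and in protease groups 1 and 3. The shares of all genes with such intervals were not computed under these settings. The changed counts are therefore not known to be particular to the 10 genes. Fcer1a turned to 0.11 and Mitf to 0.21 under the stricter filter, given without intervals. Fcer1a turned to 0.02 (0.0181, -0.04 to 0.08) in protease group 3. Slc18a2 turned to -0.20 in G1, -0.24 in S, -0.10 in G2M and -0.19 at equal phase shares. Protease groups in these alternatives were cut over both libraries together, with cells without a protease UMI ordered by library. Group 1 took all 2007 such cells labelled oil and 1321 of the 2232 labelled tamoxifen. The other such cells fell in group 2, so its ratio compares unlike cells.

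Among the list medians, proteases gave -0.12 (stricter filter), -0.22 (TMM and median-ratio) and -0.20 (no mitochondrial or ribosomal genes), amine handling 0.15 with at least 20 UMIs, and under the stricter filter eicosanoids 0.10, transcription factors 0.11 and surface receptors 0.31. Surface receptors gave 0.11 without mitochondrial and ribosomal genes and -0.08 (-0.0774) with cells of equal weight. The median by protease share became 1.09 (G1), 1.24 (thinned), 1.26 (equal weight) and 1.92 (most extreme 10%) in the library labelled oil and 1.09 (G1) in the other. By hemoglobin share it became -0.64 (G1), -0.50 (equal weight), -0.59 (stricter filter) and -0.68 (most extreme 10%) in the library labelled oil, and -0.37 (G1), -0.46 (thinned), -0.49 (equal weight) and -0.79 (stricter filter) in the other. Both α and β chains were seen in 50.1% and 46.0% of cells without thinning, 25.1% and 22.5% at 2000 UMIs and 36.2% and 34.1% at 5000 UMIs. Of 160 alternative values of single genes between libraries, 7 had the other sign where the main interval excluded 0. A further 87 lay outside the counting interval of the main value and 66 within it. The counting error of the alternative value was not used, so values from small subsets can differ by it alone.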
